A study of Mus musculus with 9 samples.

Results

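Suox and Tmigd1 are a pair of genes whose RNA was low in control mouse jejunum and high in control ileum, and which stood close to the ileal level in jejunum of Gata4 mutants. They were picked from these same arrays because mutant jejunum reached the ileal level, so their own values below are a description, with no test. Every probe set annotated to exactly 1 of the symbols was taken, which gave 1 probe set per gene, 2 of the 45037 on the array, both bright enough to be among the 29307 tested. The 9 Affymetrix Mouse Genome 430 2.0 arrays held total RNA of male mice aged 6 to 8 weeks, 1 mouse per array, in 3 groups of 3. Control jejunum and control ileum came from Gata4loxP/+VilCre mice and mutant jejunum from Gata4loxP/-VilCre mice. All groups thus carried a loxP-flanked Gata4 copy and Cre driven by the villin promoter, which is active in the intestinal epithelium, and mutants differed from controls in the second Gata4 copy, wild-type in controls and null in mutants. Jejunum was taken 10 cm beyond the pylorus and ileum 1 cm before the cecum, and control jejunum and control ileum were from different mice.

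Suox encodes sulfite oxidase, a molybdenum enzyme of the mitochondrial intermembrane space. It turns sulfite, a toxic product of cysteine breakdown, into sulfate, and passes the electrons to cytochrome c. Tmigd1 encodes a membrane protein with immunoglobulin domains, known from epithelia of gut and kidney, where it acts in cell adhesion. GATA4 is a DNA-binding regulator with zinc fingers, present in the epithelium of duodenum and jejunum and low in the ileum, where bile acids are taken up. No sequence match or shared pathway was used to choose the pair.

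The windows just before the 2 genes' starts are shown because the genes had like levels across the groups while their promoters differed in composition. Both are the 250 bases before the gene's start in RefSeq, on assembly GRCm38.p6. The letters are printed 5′ to 3′ on the gene's strand. Capitals mark CCAAT boxes and GC boxes (GGGCGG) in Suox, and CCAAT boxes, GATA motifs (GATA with A or T before it and A or G after it) and Cdx motifs (TTTAT followed by G or T) in Tmigd1, on either strand.
Suox, chr10:128673919-128674168, minus strand: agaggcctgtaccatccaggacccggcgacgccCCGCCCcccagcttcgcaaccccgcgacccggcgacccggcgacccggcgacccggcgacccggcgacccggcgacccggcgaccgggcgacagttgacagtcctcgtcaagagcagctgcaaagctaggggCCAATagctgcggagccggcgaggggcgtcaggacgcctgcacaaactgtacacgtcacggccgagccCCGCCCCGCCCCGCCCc
Tmigd1, chr11:76890870-76891119, plus strand: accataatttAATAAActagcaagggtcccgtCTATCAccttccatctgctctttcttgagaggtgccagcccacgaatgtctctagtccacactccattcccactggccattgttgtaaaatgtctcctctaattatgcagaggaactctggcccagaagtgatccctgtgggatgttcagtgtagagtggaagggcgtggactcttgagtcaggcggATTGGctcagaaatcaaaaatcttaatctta

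The Suox window was 74.4% G and C, above 95.4% of the 32851 promoter windows of that length, and its CpG ratio (observed over expected) was 1.04. It held 4 GC boxes, which 32.7% of all windows also hold at least once, 1 CCAAT box, a motif in 33.8% of windows, and no GATA or Cdx motif. It also held 7 copies of GGCGACC on the gene's strand, a unit taken from the repeat in this same window. No other of the 32851 windows held as many, which the choice of unit made likely. The Tmigd1 window was 46.4% G and C with a CpG ratio of 0.298. It held 1 CCAAT box, 1 GATA motif beginning 218 bases before the start, in letters that 26.5% of windows hold, and 1 Cdx motif beginning 240 bases before it, in letters that 25.5% hold. A window before another annotated Tmigd1 start, chr11:76901909-76902158, held 1 match each to the CCAAT box, GATA, Cdx and TATA box (TATAAA) motifs. These matches describe letters only.

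Levels are quantile-normalized log2(intensity + 16), a scale on which an intensity of 0 gives 4 and 1 unit is a doubling for bright genes. Deposited intensities were lower on the ileum arrays, with trimmed means of 96.8 to 122 against 147 to 180 on the 6 jejunum arrays, and brightness and segment cannot be told apart. The 18 spike-in control probe sets, which do not measure tissue RNA, were dimmer there too. Their mean log2 intensity as deposited was 9.65 to 9.98 on the ileum arrays and 10.48 to 10.80 on the jejunum arrays. The cause was not tested. Mutant jejunum 3 stood apart from the other arrays on the second principal component (-55.8, against -6.17 to 22.4). The segment labels were borne out by their defining genes. Fabp6, the ileal bile acid binding protein, averaged 4.84 ± 0.19 in control jejunum against 13.74 ± 0.10 in control ileum, and Lct, the brush border lactase, 12.96 ± 0.21 against 4.80 ± 0.33 (SD, n = 3 each). Gata4, the targeted gene, checks nothing here, because no source used here places its probe sets relative to the deleted part. The brighter of its 2 probe sets averaged 9.53 ± 0.04 in control and 9.50 ± 0.11 in mutant jejunum, and 5.38 ± 0.23 in control ileum.

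Suox stood at 7.37, 7.63 and 7.64 in control jejunum 1, 2 and 3. Mutant jejunum 1, 2 and 3 gave 11.32, 11.59 and 11.57. Control ileum 1, 2 and 3 gave 11.83, 11.62 and 11.86. All mutant arrays were far above all control jejunum arrays, and the mutant and ileum arrays lay next to each other without overlap, the mutant ones just below. The means were 7.55 ± 0.15, 11.49 ± 0.15 and 11.77 ± 0.13 (SD, n = 3 each), so that mutant jejunum was 3.95 log2 units (15.4-fold) and control ileum 4.23 units (18.7-fold) above control jejunum. In brightness, Suox moved from rank 9082 to 10248 of 45037 probe sets in control jejunum to rank 721 to 901 in mutant jejunum, against rank 566 to 699 in control ileum.

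Tmigd1 stood at 8.03, 9.10 and 9.51 in control jejunum 1, 2 and 3. Mutant jejunum 1, 2 and 3 gave 13.06, 13.25 and 12.98. Control ileum 1, 2 and 3 gave 13.31, 13.35 and 13.24. The control jejunum arrays were spread over 1.48 log2 units, with control jejunum 1 the lowest, as it was for Suox. The mutant and ileum groups overlapped, since mutant jejunum 2 lay above control ileum 3. The means were 8.88 ± 0.77, 13.09 ± 0.14 and 13.30 ± 0.06 (SD, n = 3 each). Mutant jejunum was thus 4.21 units (18.5-fold) and control ileum 4.42 units (21.4-fold) above control jejunum. Tmigd1 was among the brightest probe sets of the array in both groups, at rank 41 to 104 in mutant jejunum and 27 to 42 in control ileum, against 3186 to 7541 in control jejunum. Without control jejunum 1 the rise in the mutant was 3.80 units, and without control jejunum 3 it was 4.53.

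**Figure D1:**
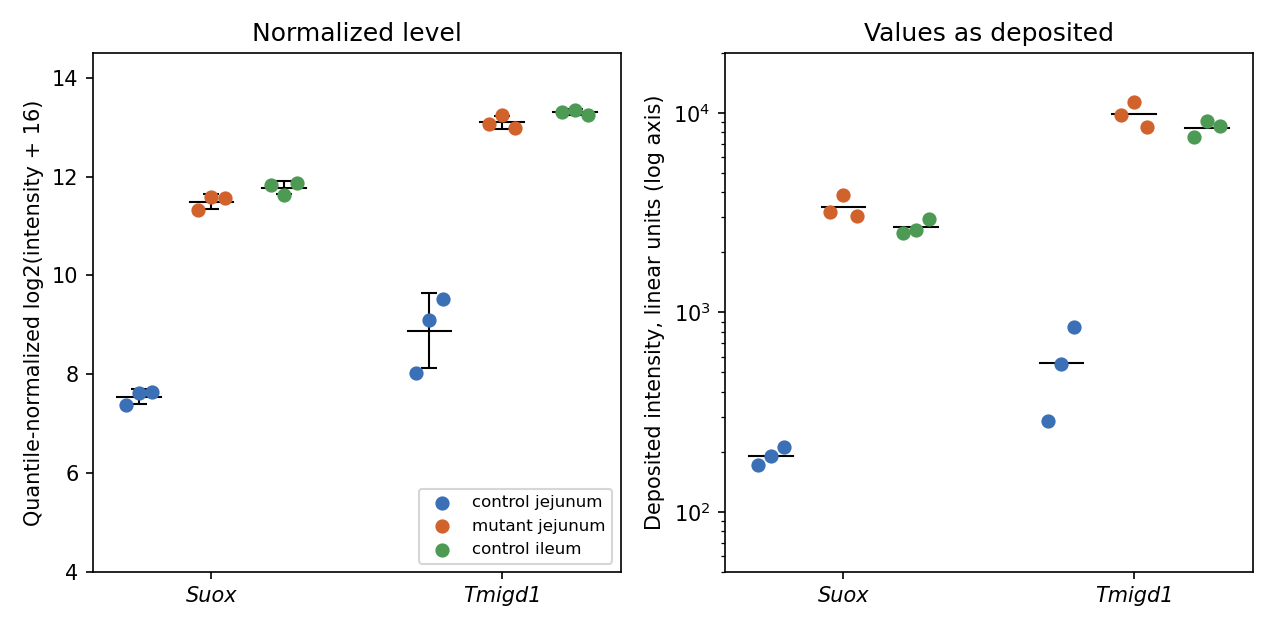
Levels of Suox and Tmigd1 on the 9 arrays: on the left as quantile-normalized log2(intensity + 16) with mean and SD (n = 3), on the right as deposited intensity on a log axis with the mean. Points are single mice; mutant jejunum (orange) lies close to control ileum (green) and far above control jejunum (blue), slightly below ileum on the left and slightly above it on the right.

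The order of the 2 upper groups depended on the scaling between arrays. On the normalized scale mutant jejunum lay 0.28 units below control ileum for Suox and 0.21 units below it for Tmigd1. As deposited, Suox averaged 3381 in mutant jejunum and 2683 in control ileum, and Tmigd1 averaged 9918 and 8434, so the mutant was the higher group. With no scaling, however, the median of all tested probe sets was itself 0.41 log2 units higher in mutant jejunum than in control ileum. Relative to that median, Suox lay 0.09 and Tmigd1 0.18 units lower in the mutant (-0.09 and -0.18). With arrays centred on their medians, Suox was 0.016 units higher and Tmigd1 0.084 units lower in the mutant (0.016 and -0.084). There the median of tested probe sets was 0.10 units higher in the mutant, and relative to it both were lower (-0.084 for Suox and -0.18 for Tmigd1). With trimmed mean scaling both were lower (-0.26 and -0.36), also relative to the median (-0.22 and -0.32). Non-overlap by itself was common: 22.5% of the 29307 tested probe sets had no overlap between mutant and control jejunum, 37.4% between control ileum and control jejunum, and 20.6% between mutant jejunum and control ileum. In whole-tissue RNA, more cells of a type and more RNA per cell cannot be told apart.

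Among probe sets at least 2 log2 units higher in control ileum than in control jejunum, of which there were 117, the pair came near the top in how far mutant jejunum had moved toward ileum. This position is the share of the distance between the control means that the mutant mean had covered, so that 0 is jejunal and 1 is ileal. It was 0.93 for Suox (14th of 117) and 0.95 for Tmigd1 (12th). Because the pair were picked for reaching the ileal level, a high position was given by that choice, and the ranks only describe it. The median position was 0.62, with quartiles of 0.49 and 0.77, and 7 probe sets had a position of 1 or more. Named genes above the pair were Slc51b, a subunit of the basolateral bile acid exporter (1.06), Sval1 (1.04), the claudin gene Cldn2 (1.03 and 0.99 in 2 probe sets), Rnf180 (1.02), Lpcat4 (1.02), Fabp6 (1.02), Tmem117 (0.99), the defensin gene Defa31 (0.97) and the phosphate transporter gene Slc34a2 (0.96). Just below came Pla2g4c (0.91 in 1 probe set and 0.77 in another) and Slc10a2, the apical bile acid transporter (0.90). The first Pla2g4c probe set varied widely, with SDs of 1.75, 2.18 and 2.28 in control jejunum, mutant jejunum and control ileum. Leaving out single arrays moved the position of Suox between 0.92 and 0.95 and that of Tmigd1 between 0.94 and 0.97. With no scaling, the positions were 1.09 and 1.06.

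**Figure D2:**
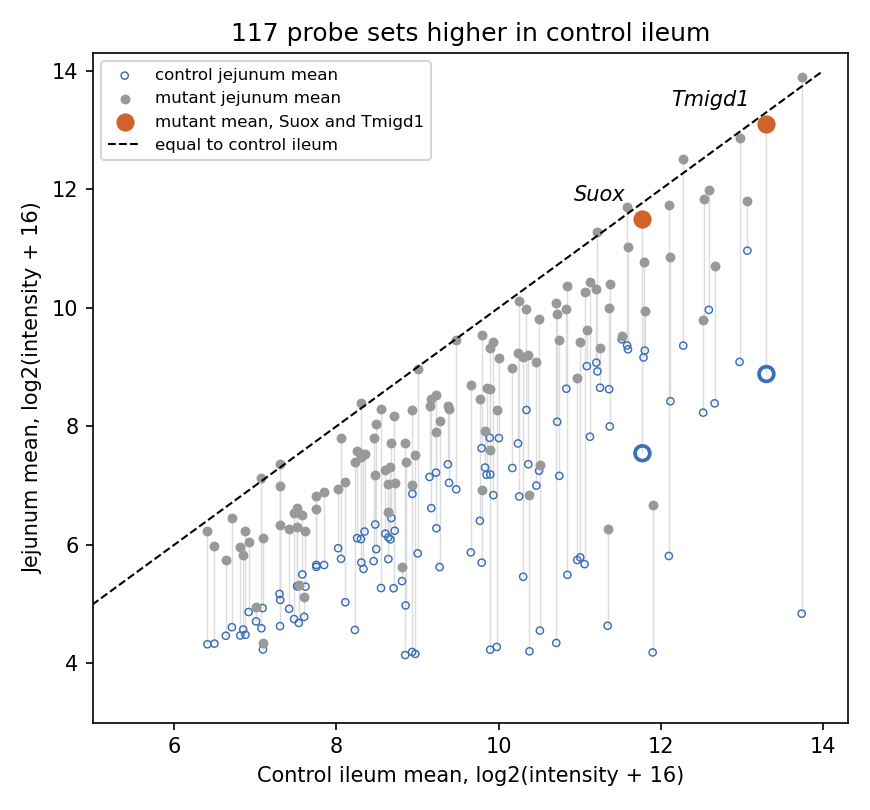
Mean levels of the 117 probe sets at least 2 log2 units higher in control ileum than in control jejunum. The x axis is the control ileum mean and the y axis the jejunum mean, both log2(intensity + 16); open circles are control jejunum, filled points mutant jejunum, grey lines join them, and the dashed line marks equality with ileum. Suox and Tmigd1 (orange) lie just under the line, at positions of 0.93 and 0.95 between control jejunum and ileum.

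The levels of the pair followed each other closely over the 9 arrays (Pearson r = 0.988). Since the arrays form 3 groups, such a correlation mostly repeats the group means, and it is given as a description. Over 13830 genes, each taken by its most correlated probe set, Suox was the gene most like Tmigd1, and Tmigd1 was the fifth most like Suox. Relative to control jejunum, the pair's levels also differed least in size, by a root mean square of 0.37 log2 units, where the next of the 50 genes most correlated with Suox, Ddah1, differed by 0.77 and Mgat4c by 0.82.

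For Suox the other genes among the first 10 were the bile acid genes Slc10a2 (r = 0.995), Fabp6 (0.995) and the receptor gene Nr1h4 (0.986), together with Rnase4 (0.990), the glycosyltransferase gene Mgat4c (0.989), the mitochondrial carrier gene Slc25a24 (0.986), Tmem117 (0.986), Sval1 (0.984) and the chaperone gene Canx (0.983). For Tmigd1 they were the monocarboxylate transporter gene Slc5a8 (0.988), Fabp6 (0.983), Slc10a2 (0.982), Tceal1 (0.980), Endod1 (0.978), Sval1 (0.978), the neuropeptide gene Nts (0.976), Tfpi2 (0.976) and the integrin gene Itgb1 (0.976). Of the first 50 genes, 38 were shared, which is 76% of either list. All 50 of each list were higher in mutant than in control jejunum. The lists were ranked by correlation with genes picked for high levels in mutant jejunum, whose own levels followed each other closely. The overlap and the shared direction were thus largely given by the ranking and are a description, with no test. Sizes varied widely within these lists: Slc10a2 was 5.74 units higher in the mutant, Mgat4c 4.59 and Itgb1 0.39. Fabp6 was the brightest probe set on all 3 mutant arrays, where quantile normalization sets it to the top of the scale (13.90), so its difference of 9.06 and its position of 1.02 are capped values.

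The other steps of sulfur metabolism were read from lists that do not contain the pair. A gene is called changed when its adjusted p in limma, with Benjamini-Hochberg adjustment over all 29307 probe sets, is under 0.05. With 1 probe set per gene, 4.39% of the 13830 genes were called between mutant and control jejunum (2.1% higher and 2.29% lower in the mutant). Between control ileum and control jejunum 17.9% were called (8.79% higher and 9.12% lower in ileum), and between mutant jejunum and control ileum 3.67% (1.97% higher and 1.7% lower in the mutant). These comparisons share arrays. Over all 29307 probe sets the shares were 3.56%, 16.2% and 2.65%.

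Of 11 enzymes that lead toward sulfite or handle related sulfur compounds, 3 rose in mutant jejunum and none fell (27.3%), and 5 rose and none fell in control ileum (45.5%). The median difference was 0.01 in the mutant and 0.41 in ileum, against 0.00 and 0.03 over all genes. Ethe1, the persulfide dioxygenase, which makes sulfite in mitochondria, stood at 8.88, 8.62 and 8.40 in control jejunum, 9.99, 9.99 and 9.42 in mutant jejunum and 9.88, 9.20 and 9.23 in control ileum. Its mutant arrays all lay above its control jejunum arrays and overlapped those of ileum. It rose by 1.17 ± 0.22 (SE, adjusted p = 0.0148, limma) in the mutant and by 0.80 ± 0.22 in ileum (adjusted p = 0.0288).

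Mpst, mercaptopyruvate sulfurtransferase, stood at 6.48, 5.89 and 6.00 in control jejunum, 7.15, 7.13 and 6.78 in mutant jejunum and 8.75, 8.73 and 8.45 in control ileum. Tst, the thiosulfate sulfurtransferase, went the same way, with group means of 6.34 ± 0.19, 7.18 ± 0.11 and 8.48 ± 0.34 (SD, n = 3 each). For both, the 3 groups did not overlap and the mutant lay between the other two. Mpst rose by 0.90 in the mutant (adjusted p = 0.0237, limma) and Tst by 0.84 (adjusted p = 0.0306), while mutant jejunum remained below control ileum by 1.62 for Mpst (-1.62, adjusted p = 0.00158) and by 1.30 for Tst (-1.30, adjusted p = 0.00518). Sqor, the sulfide oxidase of mitochondria, and Cdo1, the cysteine dioxygenase, rose in ileum, by 1.19 and 0.86 (adjusted p = 0.0135 and 0.0102, limma). In the mutant their differences of 0.49 and 0.21 were not called. Got1 and Got2, the transaminases that yield sulfite from cysteine sulfinate, were not called in either comparison.

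The 3 rises in the mutant are not firm. Ethe1 lost its call without control jejunum 2 or 3 or mutant jejunum 2 (adjusted p = 0.0615 to 0.0741). Mpst lost it without control jejunum 2 or 3 or mutant jejunum 1 or 2, or when only the 2 groups were fitted (adjusted p = 0.0507 to 0.107). Tst lost it without any one of the control or mutant jejunum arrays except mutant jejunum 1, without control ileum 2, with a pseudocount of 64 or with the replicate block (adjusted p = 0.0525 to 0.126). In ileum, Mpst and Tst kept their calls in all 20 alternatives, while those of Ethe1, Sqor and Cdo1 were lost in 5, 4 and 1 of them, each time including the setting with no scaling.

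Among genes of the molybdenum cofactor, the called ones were all lower than in control jejunum. Sulfite oxidase needs this cofactor, and 9 of 13 listed genes were tested: the enzymes that make it and the others that use it. In mutant jejunum 2 fell and none rose (22.2%), and in control ileum 4 fell and none rose (44.4%), with medians of -0.35 and -0.55. Mtarc2, an amidoxime reducing component of mitochondria, stood at 12.25, 12.32 and 12.44 in control jejunum, 11.64, 11.14 and 11.07 in mutant jejunum and 10.50, 10.45 and 10.18 in control ileum. The 3 groups did not overlap. It fell by 1.05 in the mutant and fell by 1.96 in ileum (adjusted p = 0.00328 and 1.57e-05, limma), both kept in all 20 alternatives. Its relative Mtarc1 fell by 1.49 in the mutant (adjusted p = 0.0152; lost without control jejunum 3 or mutant jejunum 2, adjusted p = 0.0610 and 0.0652) and fell by 1.86 in ileum (adjusted p = 0.00123).

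Xdh, the xanthine dehydrogenase, fell by 1.62 in ileum (adjusted p = 0.000374, limma), and Mocs2, a subunit of molybdopterin synthase, fell by 1.08 there (adjusted p = 0.0136; lost without control jejunum 2, adjusted p = 0.0590). In the mutant their differences were -0.67 and -0.52 and not called, although the dimmer of the 2 Mocs2 probe sets was lower there too and called (-0.77, adjusted p = 0.0464, limma). Gphn, which inserts the molybdenum, differed by -0.35 and -0.36 from control jejunum in mutant and ileum, and was not called. The aldehyde oxidase genes Aox1, Aox3 and Aox4 were too dim to be tested, at group means of 4.21 to 4.70.

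Downstream of sulfite oxidase, the genes that move and activate sulfate changed in both directions. Of 10 tested, 2 rose and 2 fell in mutant jejunum (40%), and 3 rose and 4 fell in control ileum (70%). Slc26a2, a sulfate transporter, stood at 9.64, 9.99 and 9.64 in control jejunum, 10.58, 10.68 and 11.20 in mutant jejunum and 10.94, 10.90 and 10.70 in control ileum. Mutant and ileum arrays overlapped, and both groups lay above control jejunum. It rose by 1.06 in the mutant and by 1.09 in ileum (adjusted p = 0.00590 and 0.00145, limma), in all 3 of its probe sets. Slc13a1, the sodium-dependent sulfate transporter, rose by 1.23 in the mutant (adjusted p = 0.0228) and by 1.50 in ileum (adjusted p = 0.00236), in 1 of its 2 probe sets. The mutant call of Slc13a1 was lost without mutant jejunum 1 or 2 or when only the 2 groups were fitted (adjusted p = 0.0527 to 0.0946).

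Papss2, which makes the activated sulfate used by sulfotransferases, stood at 12.54, 12.57 and 12.39 in control jejunum, 11.23, 11.16 and 11.12 in mutant jejunum and 10.74, 10.72 and 10.53 in control ileum, with no overlap between groups. It fell by 1.33 in the mutant and fell by 1.84 in ileum (adjusted p = 4.71e-05 and 1.61e-06, limma), in all 3 tested probe sets and, for the brightest, all 20 alternatives. Its relative Papss1 rose in ileum by 1.30 (adjusted p = 0.00578; lost with no scaling, adjusted p = 0.0789), and in the mutant it differed by 0.57 and was not called. Bpnt1, which degrades the by-product of sulfation, fell by 0.87 in the mutant and fell by 1.45 in ileum (adjusted p = 0.0215 and 0.000316). Its mutant call was lost in 7 alternatives (adjusted p = 0.0543 to 0.0920), namely with no scaling, with arrays centred on their medians, and without control jejunum 1, 2 or 3 or mutant jejunum 2 or 3. Slc26a3 and Slc26a6, anion exchangers of the brush border, fell in ileum (-0.70 and -0.54, adjusted p = 0.00817 and 0.0330). The call for Slc26a3 held in 2 of its 4 probe sets, and that for Slc26a6 was lost in 7 alternatives, among them any one of the 3 ileum arrays left out.

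**Figure D3:**
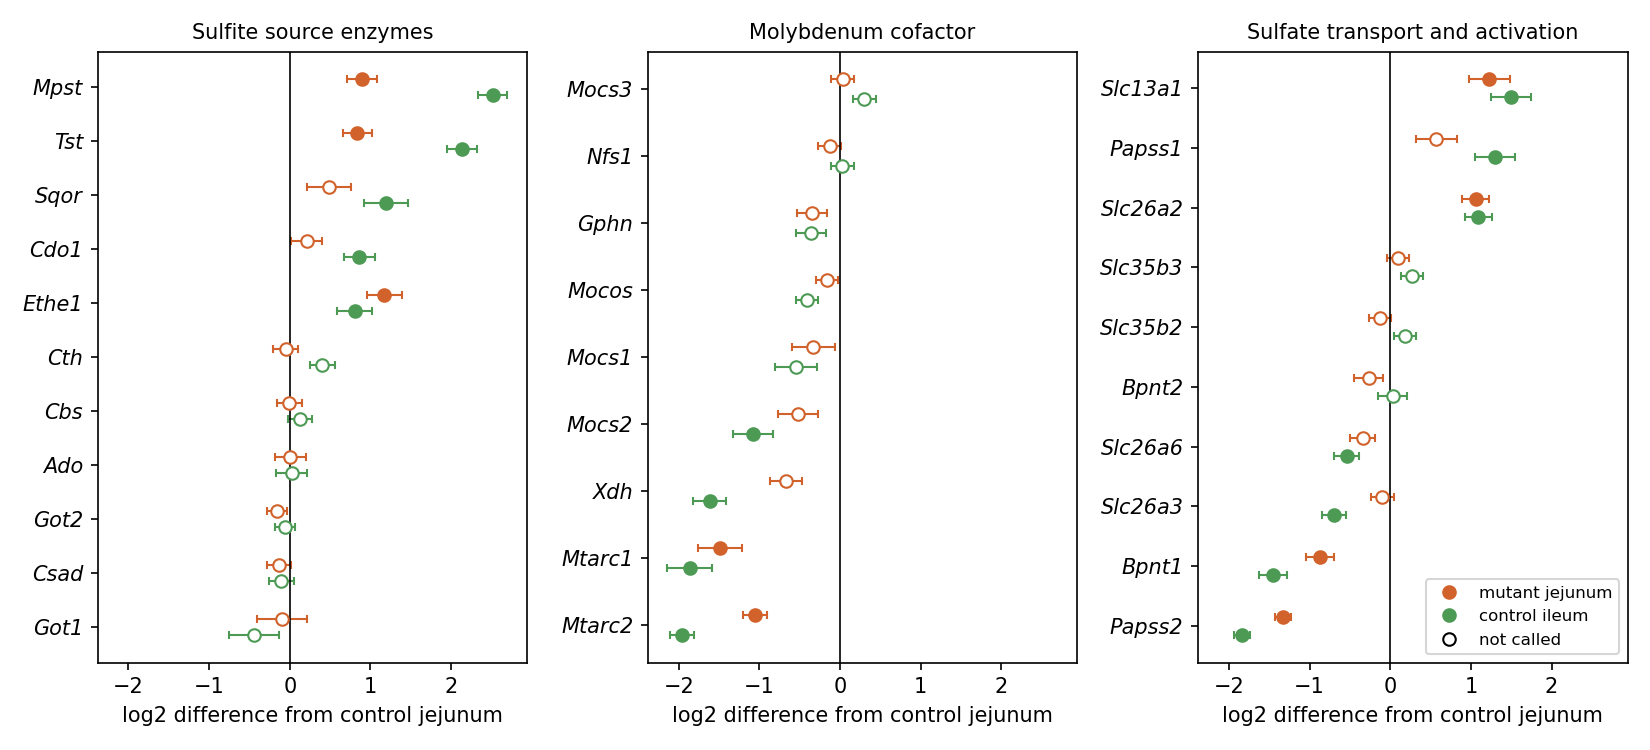
Differences from control jejunum (log2, with SE) of the tested genes that lie before sulfite oxidase, of its cofactor, and after it, in mutant jejunum (orange) and control ileum (green). Filled points are called changed at adjusted p under 0.05 and open points are not; Mpst, Tst and Ethe1 lie right of 0, Mtarc1, Mtarc2, Papss2 and Bpnt1 left of it, and none reaches the 3.95 and 4.23 units of Suox.

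Among genes of the enterocyte surface, where Tmigd1 lies, the shares called in control ileum were close to the 17.9% of all genes. In mutant jejunum few were called, where 4.39% of all genes were. Of 19 genes of the microvillus adhesion complex, its PDZ scaffolds and its actin bundle, 1 rose in mutant jejunum (5.26%) and 3 rose and 1 fell in control ileum (21.1%), with medians of -0.05 and -0.09. Baiap2l1, a membrane-bending actin regulator, stood at 9.31, 9.12 and 8.87 in control jejunum, 9.87, 10.04 and 10.21 in mutant jejunum and 9.83, 10.02 and 10.29 in control ileum, so that mutant and ileum overlapped above control jejunum. It rose by 0.94 in the mutant and 0.95 in ileum (adjusted p = 0.00817 and 0.00229, limma), in 1 of its 2 probe sets, and the ileum call was lost with no scaling (adjusted p = 0.139). The other rises in ileum were Myo1d (0.79) and Ezr (0.33), the gene of ezrin, each in 1 of its 2 probe sets, both lost with no scaling or with arrays centred on their medians and Ezr turned in direction with no scaling, and the fall was Myo7b (-0.63), a myosin of the adhesion complex, lost without control jejunum 2 or 3. The scaffold gene Slc9a3r1 stood at 13.0 in both jejunal groups and 12.9 in ileum, and the villin gene Vil1 differed by -0.11 and -0.06. Neither was called.

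Epithelial adhesion proteins with immunoglobulin domains are the class of Tmigd1, and 21 of their genes were tested. Of these, 2 rose in mutant jejunum (9.52%, against 4.39% of all genes) and 4 rose in control ileum (19%, against 17.9%). The medians were 0.01 in the mutant and 0.13 in ileum. With 2 genes called in the mutant, that share is coarse. Ceacam1 stood at 11.65, 11.78 and 11.66 in control jejunum, 12.19, 12.24 and 12.23 in mutant jejunum and 12.56, 12.72 and 12.86 in control ileum. The groups did not overlap. In this brightest probe set Ceacam1 rose by 0.52 in the mutant and 1.01 in ileum (adjusted p = 0.0123 and 5.24e-05, limma), the smallest rises of its 8 probe sets. All 8 were called higher in both comparisons, and the others rose by 0.99 to 1.61 in the mutant and 1.49 to 2.74 in ileum. Cxadr, a junctional adhesion protein, rose by 0.68 in the mutant and 0.79 in ileum (adjusted p = 0.0212 and 0.00292, limma). Another of its probe sets was not called in the mutant (0.59, adjusted p = 0.144). The alternatives were run on the brightest probe set of each gene only. For these probe sets, the mutant calls of Ceacam1 and Cxadr were each lost in 4 alternatives (adjusted p = 0.0598 to 0.107 and 0.0573 to 0.0974). Both were lost with no scaling and without control jejunum 3. Ceacam1 also lost its call without mutant jejunum 2 or with no intensity trend, and Cxadr without control jejunum 2 or mutant jejunum 1. The ileum call of Cxadr was lost with no scaling (adjusted p = 0.357). Ceacam20 and Clmp rose in ileum (0.74 and 0.58), in calls lost in 8 and 14 of 20 alternatives. Gpa33, another intestinal protein of this class, differed by -0.15 and -0.04 and was not called.

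Of 7 tested genes of mature enterocytes near the villus tip, limma called none between mutant and control jejunum, and 0 had an unadjusted p under 0.05. In control ileum 3 fell: Apoa4, an apolipoprotein (-3.50), the transcription factor gene Creb3l3 (-2.62) and Ada, the adenosine deaminase (-1.85), with adjusted p = 0.00128, 0.00121 and 0.000800. On these, mutant jejunum was higher than control ileum, by 3.28, 2.14 and 1.39 (adjusted p = 0.0119, 0.0189 and 0.0204). The call for Apoa4 was lost without mutant jejunum 1, that for Creb3l3 without mutant jejunum 1 or 2 or control ileum 2 or 3, and that for Ada without control ileum 2 or 3. The calls for Creb3l3 and Ada were also lost when only the 2 groups were fitted. Control ileum varied widely for Apoa4 (9.66 ± 1.48, SD, n = 3). So in the same mutant arrays in which Suox and Tmigd1 stood near the ileal level, these 3 genes stood above it.

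Suox lies on chromosome 10 at 128669887 to 128673918 and Tmigd1 on chromosome 11 at 76891120 to 76916587 (GRCm38.p6), so the pair share no neighbourhood. For each, the 5 nearest protein-coding genes on either side with a probe set of their own were compared. Around Suox, 9 of 10 were tested, 1 rose in mutant jejunum (11.1%), and 3 rose in control ileum (33.3%). Ikzf4, which ends 215 bases from Suox, differed by -0.37 in the mutant and -0.14 in ileum. Rab5b, 3251 bases away on the other side, was at 5.31, 5.88 and 6.34 in control jejunum, mutant jejunum and ileum. It rose in ileum by 1.02 (adjusted p = 0.00981, limma) in 1 of its 2 probe sets, and its difference of 0.56 in the mutant was not called. Rps26, a ribosomal protein gene, rose in ileum by 0.40 (adjusted p = 0.0166), in a call lost with median centring, with no intensity trend and without control jejunum 3 or control ileum 2 (adjusted p = 0.0537 to 0.0799), and turned in direction with no scaling (-0.048, adjusted p = 0.805). Dgka, a diacylglycerol kinase gene, rose by 0.54 in the mutant (adjusted p = 0.0206) and 0.84 in ileum (adjusted p = 0.000502). The mutant call of Dgka was lost with no scaling, with no intensity trend, or without control jejunum 2 or 3 or mutant jejunum 2 (adjusted p = 0.0550 to 0.0992), and the ileum call with no scaling (adjusted p = 0.238).

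Around Tmigd1, 9 of 10 neighbours were tested, and 2 rose in both mutant jejunum and control ileum (22.2% each): those directly on either side. Blmh, the bleomycin hydrolase gene, begins 29068 bases beyond the end of Tmigd1. It stood at 8.94, 9.22 and 9.22 in control jejunum, 9.81, 9.88 and 10.14 in mutant jejunum and 10.22, 10.16 and 10.32 in control ileum. The groups did not overlap, with the mutant between the others. Blmh rose by 0.82 in the mutant and 1.11 in ileum (adjusted p = 0.00586 and 0.000252, limma), in both probe sets and, for the brighter one, all 20 alternatives, and its other probe set was among the 50 genes most like Suox (r = 0.975) and Tmigd1 (r = 0.957). Cpd, the carboxypeptidase D gene, lies 44111 bases to the other side. It rose by 0.57 in the mutant (adjusted p = 0.0314), where 5 of its 7 probe sets were called alike and the call was lost in 11 of 20 alternatives, including the replicate block (adjusted p = 0.0535) and each control or mutant jejunum array left out (adjusted p up to 0.126). In ileum it rose by 0.71 (adjusted p = 0.00325; lost with no scaling, adjusted p = 0.394). Slc6a4, the serotonin transporter gene beyond Blmh, differed by -0.46 and -0.10 and was not called.

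**Figure D4:**
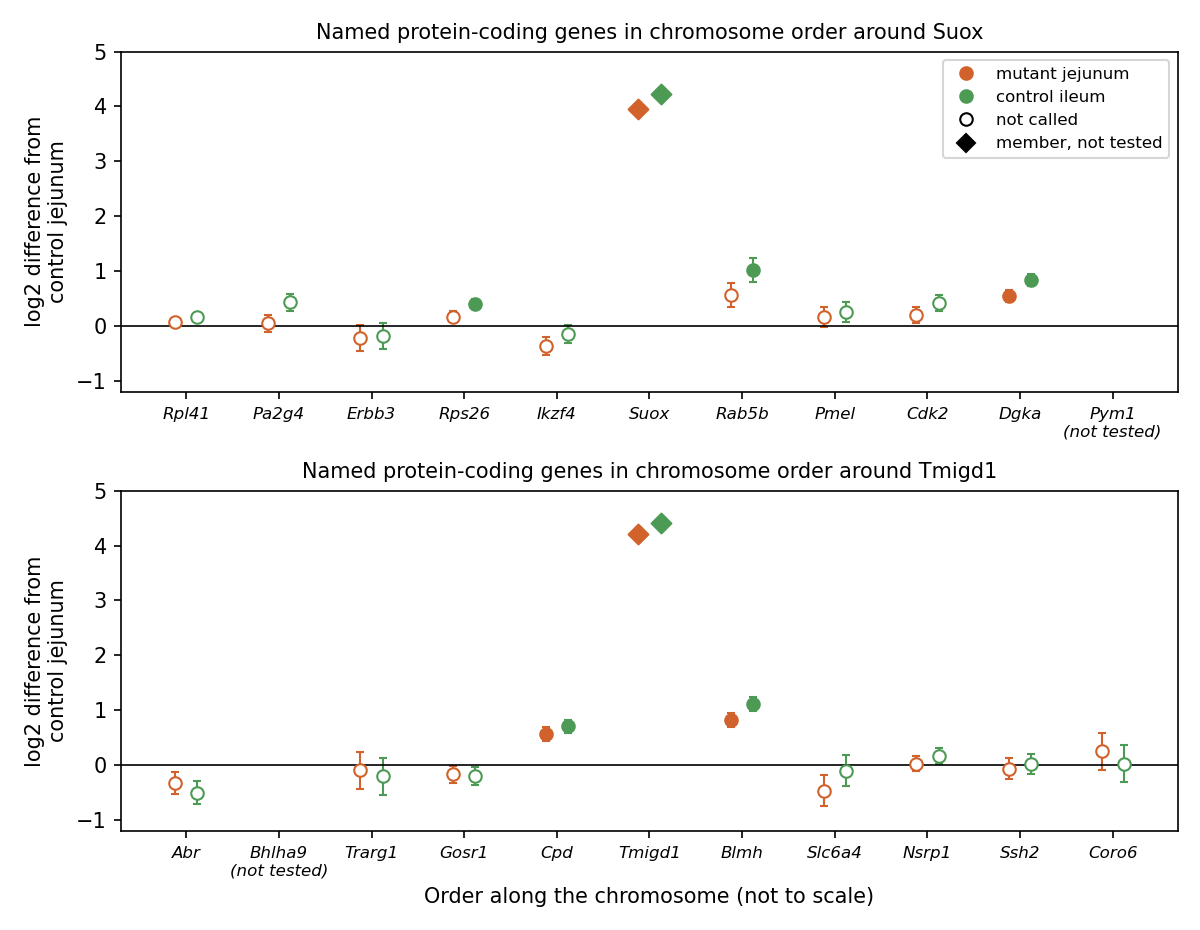
Differences from control jejunum (log2, with SE) of the named protein-coding genes on either side of Suox (top) and Tmigd1 (bottom), in chromosome order and not to scale, for mutant jejunum (orange) and control ileum (green). Filled circles are called changed, open circles are not, and diamonds are the pair itself; no neighbour differs by more than 1.11 units, against 3.95 to 4.42 for the pair.

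Markers of other tissues and cells were read beside the pair, and their part in the pair's levels was not tested. Suox is abundant in liver and Tmigd1 is known in kidney. Alb, the albumin gene of liver, measured 5.49, 7.54 and 7.66 in control jejunum and 4.07 to 4.72 on the other 6 arrays. Ttr, the transthyretin gene and the other liver marker on the array, measured 6.34, 7.76 and 7.47 in control jejunum, 7.52, 5.97 and 6.65 in mutant jejunum and 5.15, 6.74 and 5.79 in control ileum, and was not called. The mean of 3 kidney tubule markers ran from 4.50 to 4.90 over the 9 arrays, and the defining one, Umod, from 4.03 to 4.67. Of 3 fat markers, 2 were tested and neither was called, but single arrays were high. Adipoq, the adiponectin gene, measured 4.205, 5.09 and 4.10 in control jejunum, 4.33, 8.65 and 4.27 in mutant jejunum and 4.04, 6.54 and 9.34 in control ileum. The mean of Adipoq and Fabp4 ran from 5.89 to 6.58 in control jejunum, 5.90 to 9.50 in mutant jejunum and 5.74 to 10.20 in control ileum. Mutant jejunum 2 and control ileum 2 and 3 thus held more Adipoq RNA than the other arrays. Without mutant jejunum 2, mutant minus control jejunum was 3.89 for Suox and 4.15 for Tmigd1. Over 14 marker lists with 48 tested genes, 3 were called in mutant jejunum: Krt19 of epithelium (0.34), Chgb of enteroendocrine cells (-0.77) and Alb (-2.45). In control ileum 20 of the 48 were called, where 17.9% of all genes were (4.39% between mutant and control jejunum). Of 4 Paneth markers 3 rose in ileum, and mutant jejunum was below ileum on 3. Of 5 goblet markers 2 rose and 1 fell in ileum. Of 4 T cell markers 1 fell in ileum, and mutant jejunum was above ileum on 2. Of 5 smooth muscle markers 4 rose in ileum, with mutant jejunum below ileum on 4. None of 5 stroma and vessel markers was called. The mean level of 5 epithelial markers ran from 12.44 to 12.50 in control jejunum, 12.61 to 12.76 in mutant jejunum and 12.76 to 12.83 in control ileum. It thus lay in the same order as the pair, within 0.4 units. The mean of 5 smooth muscle markers was higher in control ileum (10.23 to 10.73) than in control jejunum (9.03 to 9.74) and mutant jejunum (8.81 to 9.53).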

How the data were processed

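Per the submitters' processing notes, the authors made the deposited intensity values with GCOS, the Affymetrix expression software (no version or setting is given in the sources used here). The deposited table holds 1 linear intensity per probe set and array. The 64 array controls were left out, and 45037 probe sets were taken as log2(intensity + 16) and quantile-normalized, because the arrays were not on a common scale; unequal brightness between groups is removed by this step. Testing was limited to the 29307 probe sets, both genes included, above the 40th percentile (4.95) on 3 or more of 9 arrays. Names come from the platform's annotation table (34945 probe sets with 1 gene, 932 with several, 9160 with none), updated through Entrez identifiers where RefSeq's GRCm38.p6 table held them (34741 matched). A gene with several tested probe sets is represented by the brightest over all arrays.

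Differences were tested with limma 3.58.1 in R 4.3.3 (lmFit over 9 arrays, eBayes with intensity trend, two-sided), checked on simulated data. Mice were separate in each group, and 3 arrays per group limit the precision. The pair and the gene lists were chosen with earlier results of these data known. Named genes are the pair, the called members of each list, partner steps, chromosome neighbours and, for each of the pair, the 10 genes of highest correlation. Alternatives were other scalings, pseudocounts, filters and fits, and each array left out.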

Additional observations from a re-analysis of the deposited data

How the results depend on the processing

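Of the 20 alternatives, only other scalings, other pseudocounts and arrays left out can change the group means of the pair. In these, Suox and Tmigd1 were higher in mutant jejunum and control ileum than in control jejunum, and the sign of mutant minus ileum depended on the scaling. Relative to the median of all tested probe sets, both genes were lower in mutant jejunum than in control ileum under every scaling. With no scaling, 659 probe sets were called for mutant against control jejunum, 10632 for ileum against control jejunum (5.82% higher) and 8497 for mutant against ileum (98.3% higher in the mutant). There Suox gave 3.71 for ileum minus control jejunum, 0.33 for mutant minus ileum and position 1.09, and Tmigd1 0.23 and 1.06. The ileum calls were 7 for the molybdenum cofactor, 12 for the microvillus and 5 for the villus tip, the mutant calls 0 for immunoglobulin-domain genes and 1 for neighbours, and 72 probe sets were ileum-high. In that setting the mutant minus ileum difference was 0.60 for Slc26a2, 0.44 for Ezr, 0.61 for Baiap2l1, 0.60 for Nectin3, 0.017 for Ceacam1 and 0.58 for Bsg, each below 0 after quantile normalization. Ileum minus control jejunum was -0.16 for Ezr and -0.048 for Rps26, above 0 after quantile normalization. With arrays centred on medians, mutant against ileum gave 1184 calls (79.1% higher), mutant against control jejunum 62.0% higher and ileum against control jejunum 36.7% higher (48.9%, 51.5% and 52.2% were higher in the 3 reported comparisons, mutant against control jejunum, ileum against control jejunum and mutant against ileum). Suox gave 4.07 for ileum minus control jejunum, 0.016 for mutant minus ileum and position 1.00, Tmigd1 -0.084 for mutant minus ileum, and the ileum calls were 3 for sulfite enzymes, 2 for the microvillus and 2 for immunoglobulin-domain genes. Trimmed mean scaling gave -0.36 for Tmigd1. A pseudocount of 1 gave 273 ileum-high probe sets, and 64 gave 66, with Suox at 3.64 and 3.91 above control jejunum in mutant and ileum. No filter gave 2 immunoglobulin-domain calls in ileum, and no intensity trend 1 in the mutant and 2 in ileum, with 1 neighbour in the mutant. Array weights gave 1998 calls for mutant against control jejunum, 1680 for mutant against ileum and 2 microvillus calls in the mutant. Fitting the compared groups alone gave 332 for mutant against ileum and 2 microvillus calls. The cause of these moves was not tested.

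Leaving out single arrays gave 400 to 1007 calls for mutant against control jejunum (lowest without control jejunum 3), 2862 to 5954 for ileum against control jejunum (without control jejunum 2 and mutant jejunum 3) and 199 to 1049 for mutant against ileum (without mutant jejunum 1 and 3). Mutant minus control jejunum was 3.86 to 4.02 for Suox and 3.80 to 4.53 for Tmigd1, ileum minus control jejunum 4.14 to 4.31 and 4.003 to 4.74, and mutant minus ileum -0.35 to -0.19 and -0.28 to -0.15. Positions ran from 0.918 to 0.954 and from 0.936 to 0.966, with 81.0% to 88.5% and 81.9% to 90.8% of 115 to 125 ileum-high probe sets lower. Calls in the mutant ran from 0 to 3 for sulfite enzymes (0 without control jejunum 2), 1 to 3 for the cofactor, 2 to 4 for sulfate, 1 to 2 for the microvillus, 0 to 2 for immunoglobulin-domain genes and 1 to 3 for neighbours. In ileum they ran from 4 to 6, 3 to 5, 6 to 7, 2 to 7, 2 to 4 and 4 to 6 in the same order, and 3 to 4 for the villus tip. Same-numbered samples showed little shared deviation (r -0.07 to 0.17 over 9 pairs), and the replicate numbers were not treated as pairs. With 3 arrays per group, such correlations cannot show that no pairing or shared batch existed. The replicate block gave 941, 4585 and 677 calls in the order of comparisons above. The alternative of each gene's other probe sets was not run, because each of the pair has 1. With 3 arrays per group and no depth, small differences near background cannot be resolved.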
